A study of Mus musculus with 2 samples.

Results

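The uncoupling protein genes Ucp1, Ucp2 and Ucp3 were examined in the subcutaneous fat of the groin, labelled inguinal white adipose tissue. The members were the 3 genes of that family name, found through the annotation of the array's probe sets. Of these 3 genes, 2 were measured under their own name among 19938 named genes. Ucp1 and Ucp3 had 1 probe set each, and no probe set carried the name Ucp2 in the annotation used here, so Ucp2 was not analysed here. One array held RNA of UCP1/ApoE-DKO mice (genotype Ucp1-/-;ApoE-/-, labelled DKO), and the other held RNA of littermates labelled ApoE-KO (genotype ApoE-/-). All mice were males of the strain C57BL/6J and lacked ApoE, the lipoprotein ligand that clears remnant particles from blood. Housing was at 23 °C, and a high-fat diet was started at 9 weeks of age and lasted 9 weeks. RNA of 3 mice of a genotype was pooled before hybridisation, so there were 2 arrays, 1 per genotype. The spread between mice was not measured, the differences below could not be checked against replicates, and p-values were not computed.

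Uncoupling proteins belong to the SLC25 family of carriers of the inner mitochondrial membrane. UCP1 lets protons return to the mitochondrial matrix without making ATP, and brown and beige adipocytes use it to release energy as heat. It is activated by fatty acids and inhibited by purine nucleotides, and its gene is switched on by noradrenaline through cyclic AMP and protein kinase A. UCP3 is found mainly in skeletal muscle and brown fat, where its gene follows fatty acid supply. UCP2 is found in many tissues, immune cells among them, and neither homologue is known to replace UCP1 in heat production.

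In the current RefSeq annotation of the mouse genome (GRCm38.p6), Ucp1 lies on chromosome 8 from 83290348 to 83298456. Ucp3 lies on chromosome 7 from 100472991 to 100486432, and Ucp2 follows it from 100493337 to 100499629, 6904 bases further on. The bases just before the start of the 2 measured genes are shown because these genes were higher in the same array and the best known signals to Ucp1 act through its regulatory DNA. The stretches are chr8:83290098-83290347 for Ucp1 and chr7:100472741-100472990 for Ucp3, both on the plus strand and from RefSeq (GRCm38.p6). Capitals mark TGACG, the core of the cAMP response element, and AGGTCA, the element bound by nuclear receptors, written TGACCT on the other strand.
Ucp1: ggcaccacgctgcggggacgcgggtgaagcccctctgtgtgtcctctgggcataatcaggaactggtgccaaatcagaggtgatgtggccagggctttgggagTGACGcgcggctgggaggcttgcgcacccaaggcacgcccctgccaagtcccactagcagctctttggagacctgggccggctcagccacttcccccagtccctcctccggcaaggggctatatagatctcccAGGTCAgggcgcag
Ucp3: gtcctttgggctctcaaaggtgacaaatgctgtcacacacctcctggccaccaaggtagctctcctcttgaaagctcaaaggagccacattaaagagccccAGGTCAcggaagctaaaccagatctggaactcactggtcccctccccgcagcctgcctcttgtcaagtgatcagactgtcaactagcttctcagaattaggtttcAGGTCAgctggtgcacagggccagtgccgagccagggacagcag
In Ucp1, TGACG ended 143 bases before the start on the plus strand, and AGGTCA ended 9 bases before it. Ucp3 held AGGTCA at 2 places, ending 144 and 39 bases before the start. A TGACG on the minus strand of Ucp3 lay after the start and is not printed. These words were searched on both strands of promoters reaching 250 bases before and 50 bases after a start, and no 2 matches overlapped. Of 32851 such RefSeq promoters, 20.8% held TGACG and 16.3% held TGACCT, so single matches are common. TATAAA (13.6% of promoters), GGGCGG (35.7%) and CACGTG (7.15%) were in neither promoter. The distant Ucp1 enhancer lies outside this window.

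Ucp1, the gene disrupted in the mice labelled DKO, had an intensity of 2229.88 in the DKO-labelled array and 218.95 in the ApoE-KO-labelled array. The signal was thus high in the array of mice with the disrupted gene, by their label, and low in the array of mice with the intact gene. The difference, log2 intensity of the DKO-labelled array minus that of the ApoE-KO-labelled array, was 3.35, or 10.2-fold. If the probe set (10573152) reads the disrupted part of Ucp1, its signal contradicts the label. The positions of its probes relative to the disruption are not known here, and a probe set outside the disrupted part checks nothing about the label. A signal from this probe set is a transcript level and says nothing of UCP1 protein. The arrays are therefore called DKO-labelled and ApoE-KO-labelled, and each direction depends on those labels.

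A level was set against a floor, the mean log2 intensity of the middle named probe set, which corresponds to an intensity of 196.88. This floor is a rule of this work and not a detection limit. A gene was counted as on or above the floor by its mean log2 intensity over both arrays. A gene below the floor in an array could thus be counted through the other array. The Ucp1 intensity stood 11.3 times above the floor in the DKO-labelled array and 1.11 times above it in the ApoE-KO-labelled array. The lower of these values was therefore close to the floor, with no detection call to tell it from background, and the 10.2-fold ratio rests on it. With an offset of 50 added to both intensities, the log2 difference was 3.08.

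Ucp3 differed in the same direction and by less. Its probe set (10555378) had an intensity of 937.15 in the DKO-labelled array and 489.89 in the ApoE-KO-labelled array, both above the floor. The log2 difference was 0.94, or 1.91-fold, just short of the 2-fold size used here to count a gene. The log2 difference of Ucp1 exceeded that of Ucp3 by 2.41. Levels of Ucp1 and Ucp3 were not set against each other, because different probe sets do not share a scale.

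Apoe, disrupted in all mice of the study, had an intensity of 501.96 in the DKO-labelled array and 589.27 in the ApoE-KO-labelled array. Its log2 difference of -0.23 was small and opposite in sign to those of both uncoupling protein genes. As with Ucp1, the part of Apoe that its probe set reads is unknown here.

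**Figure D1:**
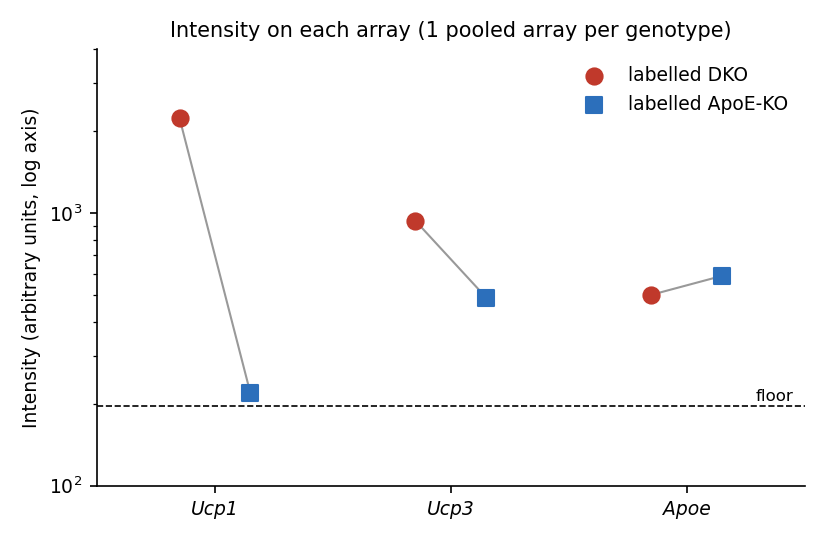
Intensity (arbitrary units, log axis) of the probe sets of Ucp1, Ucp3 and Apoe on the DKO-labelled array (red circles) and the ApoE-KO-labelled array (blue squares), with the floor of 196.88 as a dashed line. Each point is 1 array of RNA pooled from 3 mice, so there are no error bars. Ucp1 lies far above the floor in the DKO-labelled array and just above it in the ApoE-KO-labelled array.

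Among the 9891 genes on or above the floor, 2.79% were at least 2-fold higher and 0.698% at least 2-fold lower in the DKO-labelled array. Ucp1 was in the first set and Ucp3 in neither. The middle 90% of these genes differed by between -0.52 and 0.76, and both uncoupling protein genes lay above that range. Ucp1 ranked 4 from the top. The genes above it were Elovl3 (4.90), a fatty acid elongase of brown fat, Slc27a2 (4.06), an acyl-CoA synthetase, and Fabp3 (3.59), a fatty acid-binding protein of muscle, heart and brown fat. Elovl3 and Slc27a2 lay below the floor in the ApoE-KO-labelled array. With the floor in place of those values their differences were 3.351 and 3.78, where that of Ucp1 was 3.348. With an offset of 50, Elovl3 differed by 4.13 and Ucp1 by 3.08. Elovl3 thus stayed above Ucp1, but the size of its lead depends on a signal below the floor. Ucp3 ranked 331, with 330 genes differing upward by more.

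Genes of similar mean intensity gave the same picture. Of the 2896 genes whose mean log2 intensity lay within 0.5 of that of Ucp1, 1 had a higher difference, and the middle 90% lay between -0.53 and 0.84. Of the 2973 genes within 0.5 of Ucp3, 120 had a higher difference, and the middle 90% lay between -0.54 and 0.83. Over all genes on or above the floor, 168 lay within 0.1 of the difference of Ucp3 and 0 within 0.1 of that of Ucp1.

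**Figure D2:**
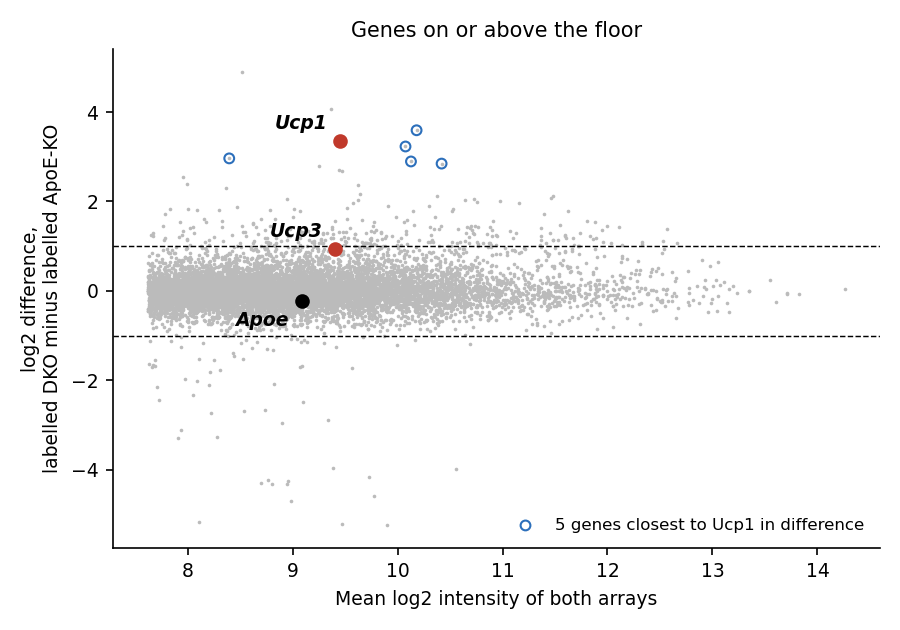
Log2 difference (DKO-labelled minus ApoE-KO-labelled array) against the mean log2 intensity of both arrays, for the 9891 genes on or above the floor (grey points). Ucp1 and Ucp3 are red, Apoe is black, blue rings mark the 5 genes closest to Ucp1 in difference, and dashed lines mark 2-fold. Ucp1 at 3.35 stands clear of the bulk of genes and Ucp3 at 0.94 lies just under the upper line.

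The genes most like Ucp1 were chosen by the smallest gap between log2 differences, a likeness over 2 arrays that rests on 1 number per gene. Cox7a1, the subunit of cytochrome c oxidase used by muscle and brown fat, had 3307.83 in the DKO-labelled array and 352.22 in the ApoE-KO-labelled array, a log2 difference of 3.23. Fabp3 had 4036.34 in the DKO-labelled array and 334.12 in the ApoE-KO-labelled array. Dio2, which activates thyroid hormone inside brown adipocytes, had 942.04 in the DKO-labelled array and 120.64 in the ApoE-KO-labelled array, where it lay below the floor. All 3 were higher in the DKO-labelled array, as Ucp1 was, which follows from how they were chosen. Cidea (2.90), which enlarges lipid droplets in brown adipocytes, and Elovl6 (2.85), which lengthens saturated fatty acids, came next, with gaps to Ucp1 of 0.45 and 0.50. Ucp3 was not past 2-fold, and no genes were named for likeness to it.

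The gene lists here and below were chosen with earlier results of these data known. Some genes are in more than 1 list, so the list counts are not separate pieces of evidence. The signal that reaches the Ucp1 gene was read step by step. Of 15 listed genes of adrenergic signalling, 10 had a named probe set and the others were not analysed here. Against the backgrounds of 2.79% and 0.698% given above, 1 of the 10 was at least 2-fold higher and 0 at least 2-fold lower in the DKO-labelled array. It was Adcy3, an adenylyl cyclase that makes cyclic AMP, with 1402.09 in the DKO-labelled array and 385.66 in the ApoE-KO-labelled array (1.86). The regulatory subunit gene of protein kinase A in fat, Prkar2b, differed by 0.41. The transcription factor genes Atf2 and Creb1, which bind the cAMP response element, differed by 0.25 and -0.29. The median of the 10 was 0.10, where that of all 19938 named genes was -0.01.

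All 25 listed activators of Ucp1 transcription were measured, and 22 lay on or above the floor. Against backgrounds of 2.79% and 0.698%, 5 were at least 2-fold higher and 0 at least 2-fold lower in the DKO-labelled array. Besides Dio2 (2.97, or 2.26 against the floor), they were Ppara, Ppargc1a, Ppargc1b and Esrrg. Ppara, the nuclear receptor that senses fatty acids, had 1008.96 in the DKO-labelled array and 242.65 in the ApoE-KO-labelled array (2.06). Ppargc1a, the coactivator of mitochondrial biogenesis and of Ucp1, had 660.31 in the DKO-labelled array and 244.01 in the ApoE-KO-labelled array (1.44). Its relative Ppargc1b differed by 1.23. Esrrg, an oestrogen-related receptor named after its value was seen, differed by 1.13 but lay below the floor in the ApoE-KO-labelled array. With the floor in place of that value it differed by 0.938, and with an offset of 50 by 0.944, which left 4 activators past 2-fold in each case.

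The other activators differed by less. The largest of these differences were those of Cebpb (0.76), Irf4 (-0.61, with a mean log2 intensity below the floor) and Esrra (0.56). Also named after their values were seen, the lineage factor genes Prdm16 (0.13), Ebf2 (-0.21) and Zfp516 (0.08) were below 2-fold. So were the thyroid hormone receptor genes Thrb (0.17) and Thra (-0.32). The receptor Pparg, needed by every adipocyte, differed by 0.47, and its partners Rxra and Rxrg by -0.22 and 0.31. The median of all 25 was 0.09. The activators that differed at least 2-fold were thus a minority of the list.

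Of 10 listed repressors of Ucp1 transcription, all lay on or above the floor, and 0 were at least 2-fold higher or lower. In 9 of them the intensity was lower in the DKO-labelled array, and their median was -0.19. Of the 9891 genes on or above the floor, 51.4% were lower by any size. Nrip1, the corepressor also called RIP140 that holds Ucp1 off in white adipocytes, had 796.58 in the DKO-labelled array and 1245.4 in the ApoE-KO-labelled array (-0.64). The retinoblastoma-related gene Rbl1 differed by -0.48, Foxo1, a forkhead factor held back by insulin, by -0.34 and the orphan receptor gene Nr2f2 by -0.34.

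Ucp3 is known as a target of PPAR receptors, and other such targets of fatty acid handling were set beside it. Of 22 listed targets, 19 were measured and 17 lay on or above the floor. Against backgrounds of 2.79% and 0.698%, 13 of the 17 were at least 2-fold higher and 0 at least 2-fold lower in the DKO-labelled array. The median of the 19 was 1.25, so the difference of Ucp3 (0.94) lay below the middle of this list. Pdk4, a kinase that spares glucose by blocking pyruvate dehydrogenase, had 5780.88 in the DKO-labelled array and 1379.16 in the ApoE-KO-labelled array (2.07). Acot2, a thioesterase of the mitochondrial matrix, differed by 2.02, and Slc25a20, the carrier of acylcarnitines, by 2.01. Angptl4, an inhibitor of lipoprotein lipase named after its value was seen, was lower in the DKO-labelled array (-0.35).

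**Figure D3:**
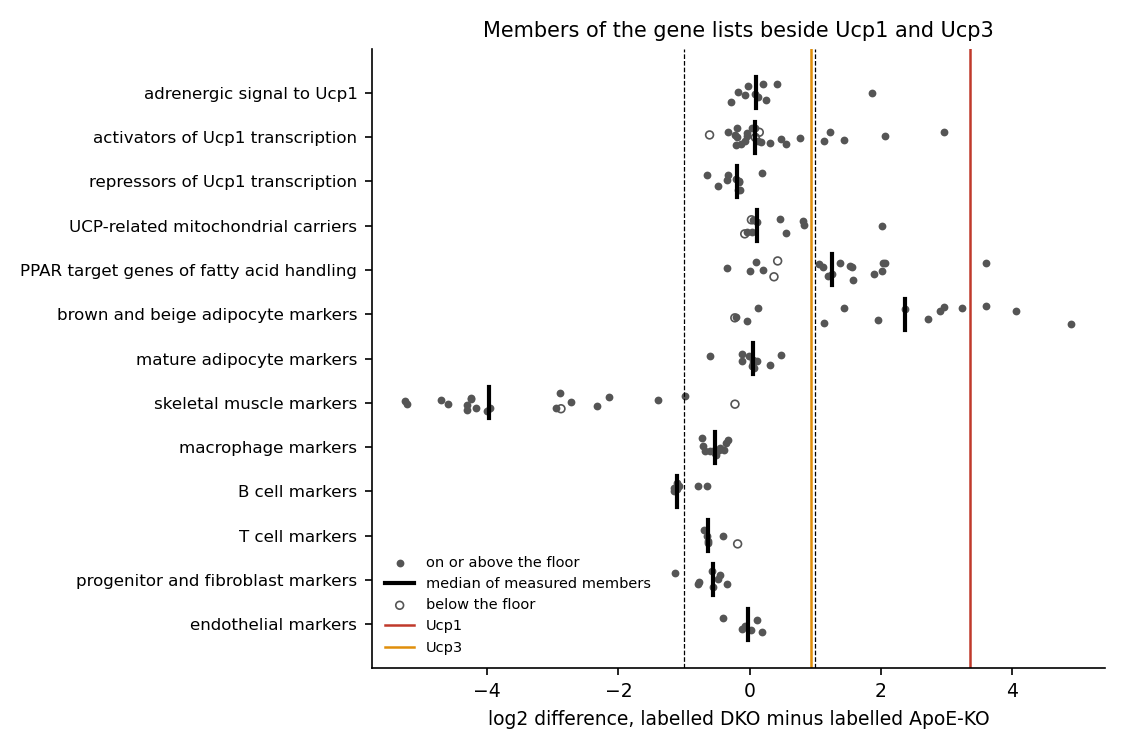
Log2 difference (DKO-labelled minus ApoE-KO-labelled array) of each measured member of the gene lists, with filled points on or above the floor, open points below it and a black bar at the list's median. Vertical lines mark Ucp1 at 3.35 and Ucp3 at 0.94, and dashed lines mark 2-fold. Ucp1 lies within the upper range of brown and beige adipocyte markers, and the skeletal muscle markers lie on the opposite side.

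Carriers related to the uncoupling proteins were read for all 11 listed genes, of which 9 lay on or above the floor. The median of the 11 was 0.11. Against backgrounds of 2.79% and 0.698%, 1 of the 9 was at least 2-fold higher and 0 were at least 2-fold lower in the DKO-labelled array. The exception was Slc25a20, with 4049.37 in the DKO-labelled array and 1004.87 in the ApoE-KO-labelled array. The ADP/ATP carriers also conduct protons. Among them, Slc25a5 had 3708.28 in the DKO-labelled array and 2082.2 in the ApoE-KO-labelled array (0.83). Slc25a4, the form of heart and muscle, differed by 0.04, and Slc25a31, the form of the testis, lay below the floor (-0.08).

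The carriers once named as further uncoupling proteins showed small differences. Slc25a27, called UCP4, differed by -0.04, Slc25a14, called UCP5, by 0.03 from below the floor, and Slc25a30 by 0.03. Among metabolite carriers, the oxoglutarate carrier gene Slc25a11 differed by 0.81, the citrate carrier gene Slc25a1 by 0.56, the phosphate carrier gene Slc25a3 by 0.47 and the dicarboxylate carrier gene Slc25a10 by 0.11. None of these 10 carriers differed as much as Ucp3, and Slc25a20 differed by more than Ucp3 and less than Ucp1.

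Cell type markers were read beside the uncoupling protein genes, since in a bulk sample fewer cells of a type and less RNA per cell cannot be told apart. Mature adipocyte markers, the check of the labelled tissue, were bright in both arrays. Adipoq, the adipocyte hormone adiponectin, had 6164.21 in the DKO-labelled array and 6714.34 in the ApoE-KO-labelled array. The 11 measured adipocyte markers summed to 49389 in the DKO-labelled array and 48458 in the ApoE-KO-labelled array, and 0 of them reached 2-fold. Sums here and below follow the brightest probe sets of a list, which do not share a scale. A sum is therefore not the level of a cell type.

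Most brown and beige adipocyte markers were on the side of Ucp1. Of 15 measured, 14 lay on or above the floor. Against backgrounds of 2.79% and 0.698%, 11 of the 14 were at least 2-fold higher and 0 at least 2-fold lower in the DKO-labelled array. The 15 summed to 27243 in the DKO-labelled array and 5371 in the ApoE-KO-labelled array, and their median difference was 2.36. Of the 15, 12 were higher in the DKO-labelled array by any size. Those short of 2-fold were Prdm16 (0.13), Tbx1 (-0.05), Ebf2 (-0.21) and Tmem26 (-0.23, below the floor). The difference of Ucp1 was larger than 12 of these 15 markers, Elovl3, Slc27a2 and Fabp3 being the exceptions. In the ApoE-KO-labelled array 4 of the 15 lay below the floor, Elovl3, Slc27a2, Dio2 and Tmem26. The differences of these 4 depend on low signals, with no detection call to tell them from background. Elovl3, Slc27a2 and Dio2 were counted as on or above the floor only through the DKO-labelled array, where they were high.

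Skeletal muscle, the other main site of Ucp3, was on the opposite side. The background share of genes at least 2-fold lower was 0.698%. All 20 measured muscle markers were lower in the DKO-labelled array, 17 of the 18 on or above the floor at least 2-fold. Their summed intensity was 3971 in the DKO-labelled array and 45739 in the ApoE-KO-labelled array, and their median difference was -3.98, or -3.25 with the floor in place of lower intensities. The calcium pump gene Atp2a1 had 155.52 in the DKO-labelled array, below the floor, and 5899.53 in the ApoE-KO-labelled array. The fast myosin gene Myh4 had 115.95 in the DKO-labelled array and 4316.97 in the ApoE-KO-labelled array, and Actn3 and Tnnt3 of fast fibres differed by -4.71 and -4.60. All 4 were below the floor in the DKO-labelled array, and with the floor in its place the differences were -4.91 for Atp2a1, -4.45 for Myh4, -3.72 for Actn3 and -4.46 for Tnnt3. Of the 20 markers, 15 lay below the floor in the DKO-labelled array and 1 (Myh7, the slow myosin gene) in the ApoE-KO-labelled array. Most of the 18 counted markers were therefore on or above the floor only through the ApoE-KO-labelled array, where they were high. Ucp3 was thus higher in the array with the weaker muscle signal. The part of muscle RNA in the Ucp3 intensity of the ApoE-KO-labelled array was not tested.

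Immune and stromal markers were lower in the DKO-labelled array by less. The 12 macrophage markers, all on or above the floor, had a median of -0.52 and 0 past 2-fold, with a summed intensity of 11989 in the DKO-labelled array and 17250 in the ApoE-KO-labelled array. The scavenger receptor gene Cd163 (-0.72), the oxidase gene Cybb (-0.71), Clec10a (-0.67) and the growth factor receptor gene Csf1r (-0.61) had the largest differences. Of 7 measured B cell markers, 5 were at least 2-fold lower, against a background of 0.698%. The median of the 7 was -1.10, with the largest differences in Ms4a1 (-1.16), Fcer2a (-1.15), Cr2 (-1.11) and Cd79a (-1.10). The 7 summed to 2878 in the DKO-labelled array and 5861 in the ApoE-KO-labelled array. The 6 measured T cell markers had a median of -0.64 and 0 past 2-fold, led by Cd2 (-0.69), Cd3g (-0.65), Cd8a (-0.64) and Cd4 (-0.63). They summed to 2696 in the DKO-labelled array and 4111 in the ApoE-KO-labelled array.

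The 8 progenitor and fibroblast markers had a median of -0.56. Pi16 (-1.13), a marker of early progenitors, was the 1 at least 2-fold lower, against a background of 0.698%. Col3a1, Dpp4 and Cd34 stood at -0.79, -0.77 and -0.57. These 8 summed to 16414 in the DKO-labelled array and 24074 in the ApoE-KO-labelled array. The 6 endothelial markers had a median of -0.02 and summed to 5806 in the DKO-labelled array and 5953 in the ApoE-KO-labelled array, with Tek at -0.41 and Kdr at 0.20. The part of these cell types in the differences of Ucp1 and Ucp3 was not tested.

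The genes around Ucp3 and Ucp2 on chromosome 7 were read as well. Of the 5 nearest measured genes on each side, 0 of 10 differed at least 2-fold, and their median was 0.12. Of the 10, 6 lay on or above the floor, where the background shares were 2.79% higher and 0.698% lower. At such shares a count of 0 among 10 genes says nothing particular of this locus. Dnajb13, a gene of sperm tails that follows Ucp2, had 233.96 in the DKO-labelled array and 134.63 in the ApoE-KO-labelled array. Its difference of 0.80 was the highest of the 10, and its mean log2 intensity lay below the floor. Mrpl48, of the mitochondrial ribosome, differed by 0.58, the phosphatase methylesterase gene Ppme1 by 0.38, and Coa4, of cytochrome c oxidase assembly, by 0.24.

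The remaining neighbours lay between -0.27 and 0.28. C2cd3, a centriole gene just before Ucp3, differed by -0.17, Pgm2l1 by -0.23 and the membrane traffic gene Rab6a by -0.0033. P4ha3 (0.28), Plekhb1 (-0.27) and the non-coding Gm10603 (0) lay below the floor. The difference of Ucp3 was larger than that of each of these 10 genes. It was also larger than that of 96.7% of all genes on or above the floor, so this is not particular to its neighbours.

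**Figure D4:**
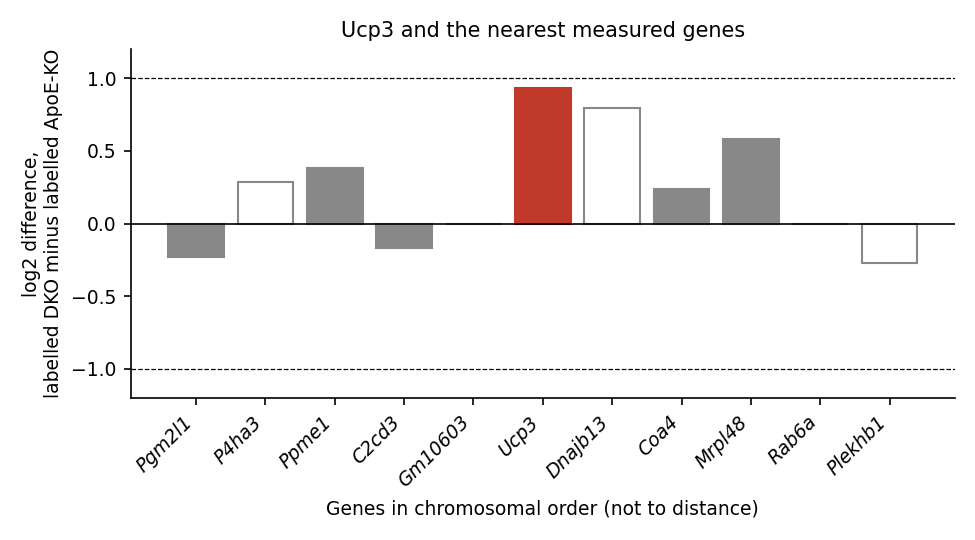
Log2 difference (DKO-labelled minus ApoE-KO-labelled array) of Ucp3 (red) and of the 5 nearest measured genes on each side of Ucp3 and Ucp2, in chromosomal order, with grey bars for genes on or above the floor, open bars for genes below it and dashed lines at 2-fold. Ucp3 at 0.94 is the tallest bar, followed by Dnajb13 at 0.80.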

How the data were processed

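Each of the 2 Affymetrix arrays was hybridised with RNA pooled from 3 mice, extracted with Trizol and labelled with biotin per the labels' protocols. The authors deposited 1 linear intensity per probe set and array, with no detection call. Methods for background, probes and array scaling were not given in the sources used here. Median intensity was 152.1 in the DKO-labelled array and 157.65 in the ApoE-KO-labelled array. Having 2 arrays limits the precision.

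Log2 was taken with no offset in Python 3.11.15. Of 35557 probe sets, 21789 carried a single gene symbol and were used; 1621 with several symbols and 12147 unnamed here were not. Entrez identifiers of 21698 matched RefSeq, and a gene's brightest probe set was used (999 genes had several). Ucp1 and Ucp3 had 1 probe set each. A single array per group allows no test, and 2-fold was the size rule. Genes were named by rule: the members, Apoe, the 5 genes closest to a member past 2-fold, up to 4 genes per list, the related carriers and the chromosomal neighbours. Other list members were named outside this rule, some after their values were seen. Among them were several activators of Ucp1 transcription, Angptl4 and the brown and beige markers short of 2-fold. Members and lists were chosen with earlier results of these data known. The 2-fold cut was tried on simulated data with planted differences, without scaling and after quantile normalization, median centring and loess. The floor, the offset and the choice of probe set were not part of that trial. The planned comparison of proteins was not run, since no protein sequences were used here.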

Additional observations from a re-analysis of the deposited data

How the results depend on the processing

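Ucp1 and Ucp3 kept their direction and their side of 2-fold under quantile normalization, median centring, loess (span 0.4), an offset of 50, the mean of probe sets and the floor put in place of lower intensities. Over these 6 alternatives the difference lay between 3.08 and 3.40 for Ucp1, between 0.87 and 0.99 for Ucp3 and between -0.25 and -0.18 for Apoe. The last 2 settings could not move them, since each has 1 probe set and lies above the floor on both arrays. The lead of Ucp1 over Ucp3 was 2.44 under quantile normalization, 2.41 under loess and 2.21 with the offset. The median of the mature adipocyte markers (0.05) lay between -0.0022 and 0.10 and that of the endothelial markers (-0.02) between -0.03 and 0.03, so neither has a direction. With the floor in place of lower intensities, the muscle median was -3.25 in place of -3.98. With 10 neighbours of Ucp2 and Ucp3 on each side, the median was -0.05 in place of 0.12. Of 380 values recomputed, 359 stayed alike (counts within 1.5 times, differences on the same side of 2-fold). Part of this was fixed in advance. The mean of probe sets cannot move a list whose genes have 1 probe set each, and a count of 0 stays 0 at 3-fold. A change of sign below 2-fold also counted as alike, as for the medians of the mature adipocyte markers and the neighbours.

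The values that did not stay alike were mostly counts moved by the size rule or the floor, which do so by construction. Genes higher and lower numbered 276 and 69, against 749 and 369 at 1.5-fold and 52 and 38 at 3-fold, and those lower numbered 105 with no floor and 26 with the floor at percentile 75. At 1.5-fold, the members lower became 4 (macrophage), 4 (T cell), 1 (mature adipocyte), 3 (progenitor) and 1 (repressors), and 3 related carriers were higher. At 3-fold, 0 B cell and 0 progenitor markers were lower, and 2 activators and 5 PPAR targets were higher. With the floor at percentile 75, 10 muscle and 3 B cell markers were lower and 2 activators higher. With the offset, 3 B cell markers were lower and their median was -0.99, short of 2-fold. No paired analysis was possible because each genotype has 1 array. Without replicates, these alternatives say nothing of the spread between mice.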
